A study of Mus musculus with 12 samples.

Results

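Mouse Th17 cells given interleukin-1 beta alone (IL-1B, an inflammatory cytokine) were compared directly with Th17 cells given dexamethasone alone (Dex, a synthetic glucocorticoid). The members are the 6 RNA libraries, of 12 in the series, whose treatment label names one agent alone: 3 with IL-1B and 3 with Dex. In this contrast no untreated library enters the difference, so it shows how far apart a cytokine and a steroid hormone left the same kind of cell. All cells were wild type. They were made in culture from naive CD4+ T cells, activated for 72 h by antibodies to CD3 and CD28 fixed to the plate, in medium with IL-6 and TGF-B and with blocking antibodies to IL-4 and IFN-g. The agents were present for the 4 h before harvest, and the sources used here give no dose for either. A further treated group held both agents (Dex+IL-1B, 3 libraries) and the controls held neither (untreated, 3 libraries). Both groups appear below only to place the IL-1B and Dex levels. Libraries are named by group and replicate number (Dex 2 is replicate 2 with Dex). Whether the 3 libraries of a group stem from different cultures or mice is not given in the labels; all p-values are therefore relative to the spread among these libraries, and that spread may be technical.

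Th17 cells are helper T cells that make the cytokines IL-17A and IL-17F and defend barrier tissues against bacteria and fungi. IL-1B binds its receptor Il1r1 with the accessory chain Il1rap. The adaptor Myd88 and the IRAK kinases then activate NF-kB and MAP kinases, and in Th17 cells this signal is known to raise cytokine output. Dexamethasone enters the cell and binds the glucocorticoid receptor Nr3c1, which moves to the nucleus, raises genes such as Tsc22d3 and Fkbp5 and represses many NF-kB and AP-1 target genes.

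Total counts were 17151850.0 to 20028057 in the IL-1B libraries and 21850738 to 24106318 in the Dex libraries. The T cell and Th17 markers Cd3e, Cd4, Trac, Il17a, Il17f, Ccr6 and Il23r were present in all 6 libraries. Summed markers of B, myeloid, CD8 and NK cells overlapped between the groups: B cell markers summed to 109 to 119 CPM (reads scaled to the library total) with IL-1B and 109.6 to 132 CPM with Dex, and myeloid markers to 212 to 235 and 215 to 228 CPM. CD8 and NK cell markers summed to 17.6 to 23.1 CPM with IL-1B and 19.9 to 22.4 CPM with Dex. Of these CD8 and NK markers 6 were tested, and 4 of the 6 log2 differences of IL-1B over Dex were positive, with a median of 0.35. Only 1 had an adjusted p under 0.05. That was Klrd1, lower with IL-1B, at 3.94, 3.11 and 3.97 CPM, against 6.29, 6.73 and 5.43 CPM with Dex (-0.66 ± 0.16, adjusted p = 0.0101). Some members of these lists had no read in any of the 6 (Lyz2, S100a8, Clec9a, Ncr1 and Gzmk) and others were present in all, such as Cst3 at 56.7 to 69.9 CPM and H2-Ab1 at 78.5 to 99.2 CPM. Cd8a stood at 3.2 to 5.02 CPM. The part of such cells in the results was not tested. Of 7 sums compared, 2 did not overlap. That of the T cell and Th17 markers, which includes Il17a and Il17f, was 1332 to 1485 CPM with IL-1B and 1046 to 1186 CPM with Dex. That of gamma-delta T and innate lymphoid genes was 153 to 168 CPM with IL-1B and 221 to 363 CPM with Dex. Each had an exact two-sided permutation p of 0.1, the smallest that 3 against 3 can give, and 0.35 adjusted over the 7. Of the 8 markers in the first sum, 3 had a positive log2 difference and 5 a negative one, with a median of -0.08. The 2 called were Il17a and Il17f, both higher with IL-1B. Cd4 stood at 473, 473 and 452 CPM with IL-1B and 570, 619 and 538 CPM with Dex. Most of the second sum was Il7r, which CD4+ T cells also express. In such bulk samples fewer cells of a type and less RNA per cell cannot be told apart. Some libraries stood apart. Genes that overlap ribosomal RNA took 12740 CPM in IL-1B 2, against 3485 to 5777 CPM in the other 5 of the 6 libraries. IL-1B 2 also had the highest mitochondrial level of the 6, 15620 CPM. Its Cd3e level was 51.9 CPM, against 134 CPM in both IL-1B 1 and IL-1B 3. Dex 2 had the highest levels in its group of genes such as Tsc22d3, Txnip and Klf2. Heart muscle genes, a list of 9 chosen after seeing the data, had 9, 12 and 7 reads with IL-1B and 369, 143 and 7 with Dex, and none of the 6 tested was called (lowest adjusted p = 0.109). Untreated 1, 2 and 3 had 6, 429 and 533 such reads, and the Dex+IL-1B libraries 3, 5 and 0. The cause was not tested.

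Of 13821 genes tested, 3022 differed between IL-1B and Dex at an adjusted p under 0.05 in edgeR's quasi-likelihood test, which is 21.9% of genes, and such genes are termed called. IL-1B gave higher levels for 1692 of them, 12.2% of genes, and lower levels for 1330, 9.62% of genes. A difference of at least 2-fold was found for 511 called genes, 3.7% of those tested, 237 of them (1.71%) higher and 274 (1.98%) lower with IL-1B. The 3 IL-1B libraries did not overlap the 3 Dex libraries at 5598 genes, 40.5% of those tested. Over all genes the median log2 difference was -0.02. Counts of called members in the gene lists below are to be read against these shares of all genes. The 12 largest rises by the rule for named genes included the cytokine genes Csf2, Il2, Il17f and Il17a, and the 12 largest falls included the glucocorticoid-linked genes Tsc22d3, Txnip and Pik3ip1. That rule asked for no overlap between the 3 IL-1B and 3 Dex libraries, so separation of the groups in these genes was fixed by the choice. Leaving out Dex 2 lowered the count of called genes to 1839, and a test against a change of 1.5-fold called 161. From the same fit, 2959 genes (21.4%) were called for IL-1B against untreated and 74 (0.535%) for Dex against untreated. These comparisons share libraries with the one described here, so their values for a gene are given side by side and not as separate support. Values below are CPM on TMM-scaled library sizes in libraries 1, 2 and 3, group means ± SD with n = 3, and log2 differences of IL-1B over Dex ± SE from edgeR.

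**Figure D1:**
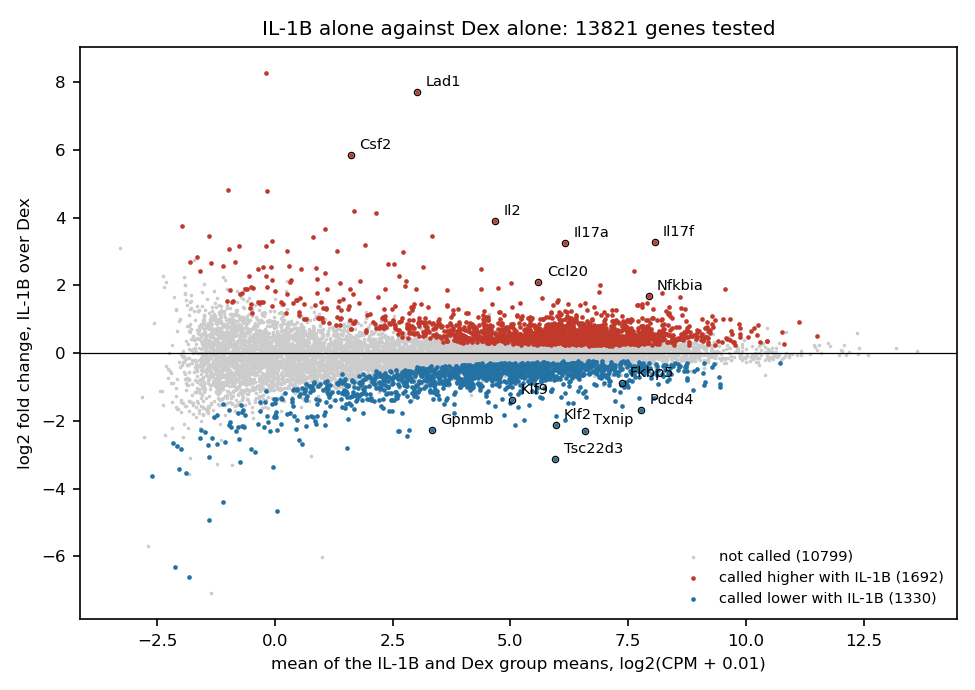
Each point is 1 of the 13821 genes tested, with the log2 fold change of IL-1B over Dex on the vertical axis and the mean of both group levels, log2(CPM + 0.01), on the horizontal axis. Red points are the 1692 genes called higher with IL-1B and blue points the 1330 called lower; cytokine genes such as Csf2 (5.85) and Il17a (3.25) lie at the top and Tsc22d3 (-3.13) at the bottom among well-expressed genes.

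Cytokine genes that define Th17 effector function had the highest median of the 32 gene lists described. The lists were chosen with earlier results of these data known, so this rank is a description only. All 6 tested members of a list of 7 rose with IL-1B over Dex, with a median log2 difference of 3.21, against -0.02 over all genes. Il17a, the signature cytokine of the lineage (ENSMUSG00000025929, chromosome 1, 20730905 to 20734496, on GRCm38, as for all positions here), had 136, 117 and 136 CPM in IL-1B 1, 2 and 3, against 16.1, 8.96 and 15.9 CPM in Dex 1, 2 and 3. The log2 difference was 3.25 ± 0.32 (adjusted p = 9.05e-05). Its close relative Il17f had 472, 477 and 507 CPM with IL-1B and 43.7, 55.3 and 50.1 CPM with Dex (3.29 ± 0.25, adjusted p = 6.94e-06). Dex+IL-1B libraries averaged 431 ± 107 CPM and untreated libraries 120.1 ± 44.8 CPM of Il17f, so the IL-1B mean of this gene lay above the untreated mean and the Dex mean below it. IL-1B against untreated changed Il17f by 2.01 ± 0.23 (adjusted p = 0.000304), and Dex against untreated by -1.27 ± 0.23 (adjusted p = 0.035). For Il17a Dex against untreated was not called, at -0.75 ± 0.31 (adjusted p = 0.443).

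Csf2, which encodes GM-CSF, a growth factor for myeloid cells, had 102, 130 and 97 raw reads with IL-1B and 0, 1 and 6 with Dex. Its log2 difference was 5.85 ± 0.70, adjusted p = 0.000163, and at so few Dex reads the size is imprecise: 5.29 to 7.77 over the alternatives. Ccl20, a chemokine that draws CCR6-bearing cells, had 79, 81 and 74.9 CPM with IL-1B and 18.4, 18.6 and 17.7 CPM with Dex. Replicates lay close together in both groups, and Ccl20 shared the smallest adjusted p of all genes with Nfkb2 and Stat5a (2.10 ± 0.11, adjusted p = 9.4e-08). Untreated libraries held 51.9, 49.5 and 49.4 CPM, between the groups; IL-1B against untreated gave 0.64 ± 0.10 (adjusted p = 0.00112) and Dex against untreated -1.46 ± 0.11 (adjusted p = 1.06e-05). For Il21, a cytokine that acts back on T cells and on B cells, levels were 433, 398 and 409 CPM with IL-1B and 252, 255 and 270.3 CPM with Dex (0.67 ± 0.08, adjusted p = 0.000156). Il22, which acts on epithelium, had only 23, 15 and 20 reads with IL-1B and 0, 0 and 8 with Dex (3.17 ± 0.88, adjusted p = 0.0204). It was not called when IL-1B 1 was left out, or when Dex 1 or 2 was left out (adjusted p of 0.0505, 0.0689 and 0.0731; range across the alternatives 0.00159 to 0.167).

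Other secreted factors followed with more exceptions. Of 30 listed cytokines and chemokines outside the Th17 set, 24 were tested, 10 rose, 1 fell and 13 were not called (median 0.74). Il2, the T cell growth factor gene (ENSMUSG00000027720, chromosome 3, 37120523 to 37125959), had 48.7, 56.8 and 38.8 CPM with IL-1B and 3.92, 1.29 and 4.4 CPM with Dex. Its log2 difference was 3.90 ± 0.31 (adjusted p = 9.68e-06). Ltb, which encodes lymphotoxin beta and is needed for lymphoid organs, had 799, 908 and 887 CPM with IL-1B and 419, 449 and 448 CPM with Dex (0.98 ± 0.08, adjusted p = 8.79e-06), with untreated at 624 ± 41.8 CPM. The chemokine genes Cxcl10 (2.45 ± 0.463 CPM with IL-1B, 0.436 ± 0.108 with Dex; 2.47 ± 0.32, adjusted p = 0.000265) and Cxcl3 (3.2 ± 0.625 and 0.289 ± 0.256 CPM; 3.42 ± 0.54, adjusted p = 0.000868) rose at low levels, and Cxcl3 belongs to a family of close copies that could share reads. Ifng, the Th1 cytokine that the blocking antibody in the medium targets, had 44, 27 and 24 reads with IL-1B against 4, 0 and 0 with Dex (4.78 ± 0.78, adjusted p = 0.001). Il13 had 12, 9 and 9 reads with IL-1B against 5, 0 and 0 with Dex (2.84 ± 0.96, adjusted p = 0.0481), and its call was lost when IL-1B 1, 2 or 3 was left out, or when Dex 2 or 3 was left out, or with no low-count filter or the replicate block, or without both libraries with much ribosomal RNA (adjusted p of 0.104, 0.0812, 0.082, 0.15, 0.153, 0.0503, 0.0522 and 0.0686; range across the alternatives 0.0145 to 0.329). The member that fell was Tgfb3, a TGF-beta isoform linked to Th17 cells that provoke tissue damage, with 25.8, 21.6 and 34.5 CPM with IL-1B and 87.4, 75.5 and 132 CPM with Dex (-1.85 ± 0.55, adjusted p = 0.0371). Its call was lost when IL-1B 1, 2 or 3 was left out, or when Dex 1, 2 or 3 was left out, or with limma-voom or no low-count filter, or without both libraries with much ribosomal RNA (adjusted p of 0.102, 0.144, 0.0702, 0.0687, 0.064, 0.113, 0.0597, 0.0977 and 0.0537; range across the alternatives 0.00215 to 0.317).

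Several of the 12 largest rises were not immune mediators. Lad1, which encodes the anchoring filament protein ladinin (ENSMUSG00000041782, chromosome 1, 135818598 to 135833342), had 293, 357 and 233 reads with IL-1B and 2, 1 and 2 with Dex, the largest rise by the rule (7.71 ± 0.58, adjusted p = 5.15e-06). Mylk, a myosin light chain kinase, had 5.83, 7.63 and 4.74 CPM with IL-1B and 0.256, 0.669 and 0.0807 CPM with Dex (4.19 ± 0.47, adjusted p = 9.58e-05). Pdzk1ip1, a small membrane protein gene, had 8.9, 6.36 and 9.89 CPM with IL-1B and 0.768, 0.223 and 0.403 CPM with Dex (4.15 ± 0.37, adjusted p = 1.03e-05). All 3 were at comparable levels with Dex+IL-1B, at 12.9 ± 4.22, 7 ± 0.405 and 8.25 ± 2.15 CPM, and averaged 0.302 ± 0.305, 0.0611 ± 0.0742 and 0.342 ± 0.144 CPM in untreated libraries. Ubd, a ubiquitin-like modifier induced by inflammatory cytokines, averaged 18.5 ± 6.12 CPM with IL-1B and 1.67 ± 0.213 CPM with Dex (3.47 ± 0.27, adjusted p = 4.58e-06). Vash1, which encodes the tubulin-modifying enzyme vasohibin (3.18 ± 0.36, adjusted p = 8.93e-05), Hrh2, the histamine H2 receptor (2.64 ± 0.20, adjusted p = 3.51e-06), and the secreted semaphorin Sema3b (2.64 ± 0.49, adjusted p = 0.00278) completed the set together with Il1rn, described next.

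The components that receive the IL-1 signal did not move as a block. Of 20 listed genes of the IL-1 receptor family and its first kinases and adaptors, 19 were tested, 4 rose and 2 fell, and the median was 0.06. Il1rn, the secreted antagonist that blocks Il1r1, had 13.2, 9.73 and 12.1 CPM with IL-1B and 1.58, 0.981 and 1.82 CPM with Dex, the largest rise of the list (2.99 ± 0.26, adjusted p = 8.79e-06). Tab2, which links TRAF6 to the kinase TAK1, averaged 307 ± 26.9 CPM with IL-1B and 181 ± 11.9 CPM with Dex (0.76 ± 0.09, adjusted p = 0.000144). Smaller rises were those of the decoy receptor Il1r2 (0.58 ± 0.15, adjusted p = 0.0151) and the kinase Irak2 (0.38 ± 0.10, adjusted p = 0.0134). Il1r1 itself, the signalling receptor, had 7.44, 6.85 and 7.43 CPM with IL-1B and 12.4, 28.7 and 13 CPM with Dex (-1.31 ± 0.39, adjusted p = 0.0322). The IL-1B libraries were level with each other and below all Dex libraries, of which Dex 2 was the highest. Untreated libraries held more still, 50.5, 30.9 and 19.8 CPM, and IL-1B against untreated was -2.22 ± 0.39 (adjusted p = 0.00276). The adaptor Myd88 also fell (-0.49 ± 0.13, adjusted p = 0.015). Of these calls, that of Il1r1 was lost when IL-1B 1, 2 or 3 was left out, or when Dex 2 was left out, or with limma-voom or no low-count filter, or without both libraries with much ribosomal RNA (adjusted p of 0.0811, 0.124, 0.0767, 0.124, 0.104, 0.109 and 0.162; range across the alternatives 0.0139 to 0.366). That of Myd88 was lost when IL-1B 2 was left out, or when Dex 2 was left out (adjusted p of 0.0505 and 0.0787; range across the alternatives 0.00298 to 1), that of Il1r2 when IL-1B 1 was left out, or when Dex 2 was left out (adjusted p of 0.0523 and 0.0558; range across the alternatives 0.00385 to 1) and that of Irak2 when Dex 1 or 3 was left out (adjusted p of 0.0514 and 0.0591; range across the alternatives 0.00186 to 1). The list held 4 rises and 2 falls, against 3 rises and no fall without Dex 2, 4 rises and no fall without IL-1B 2, 3 rises and 1 fall without IL-1B 1, and 4 rises and 1 fall without IL-1B 3.

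In the NF-kB system itself the subunit and inhibitor genes held the rises. Of 15 subunits, inhibitors and kinases, all tested, 9 rose, none fell and 6 were not called, with a median of 0.75. The 9 were Nfkbia, Nfkb2, Rel, Nfkbiz, Nfkbib, Nfkbie, Relb, Nfkb1 and Bcl3, which are subunits or members of the inhibitor family. The kinase genes Chuk, Ikbkb and Map3k14, the kinase scaffold Ikbkg, the subunit Rela and the inhibitor relative Nfkbid were not called. Nfkb2, which encodes the p100 precursor of the p52 subunit (ENSMUSG00000025225, chromosome 19, 46304320 to 46312385), had 582, 618 and 571 CPM with IL-1B and 198, 174 and 190.0 CPM with Dex. Both groups were tight and lay far apart (1.66 ± 0.09, adjusted p = 9.4e-08). Nfkbia, which encodes the inhibitor IkBa that ends the response (ENSMUSG00000021025, chromosome 12, 55489410 to 55492647), had 343, 423 and 353 CPM with IL-1B and 114, 130.2 and 106 CPM with Dex (1.68 ± 0.12, adjusted p = 1.81e-06). With both agents Nfkbia stood at 367, 388 and 431 CPM, as high as with IL-1B alone, and untreated libraries held 180.1, 173 and 143 CPM. Nfkbib (0.98 ± 0.08, adjusted p = 8.79e-06), Relb (0.81 ± 0.09, adjusted p = 0.000114) and Nfkbiz, which encodes an atypical IkB needed for IL-17 production (1.02 ± 0.22, adjusted p = 0.00719), rose by less.

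Promoter sequence is shown for 3 genes, of which Nfkbia and Ccl20 were called higher with IL-1B and Gpnmb lower. Their upstream windows hold a match to a kB or a glucocorticoid response element (GRE) motif. These are the 250 bases before the annotated start, from RefSeq on GRCm38.p6, read 5′ to 3′ on the gene's strand. The genes and motifs were chosen after their matches were seen: longer kB and GRE forms were searched first, and the shorter forms below took their place afterwards. Capitals mark the matches: GGAAANTCC or GGAAANCCC, forms of the kB motif, on either strand, or ACANNNTGT, the palindromic core of the GRE. No match overlaps a match to another motif in these windows. Nfkb2 was searched too and is not shown. Of the windows before its several starts, that at chr19:46305445-46305694 held no match and the others held a kB match. Nfkbia is at chr12:55492648-55492897 on the minus strand, Ccl20 at chr1:83116516-83116765 on the plus strand and Gpnmb, described with the falls below, at chr6:49036268-49036517 on the plus strand.
Nfkbia: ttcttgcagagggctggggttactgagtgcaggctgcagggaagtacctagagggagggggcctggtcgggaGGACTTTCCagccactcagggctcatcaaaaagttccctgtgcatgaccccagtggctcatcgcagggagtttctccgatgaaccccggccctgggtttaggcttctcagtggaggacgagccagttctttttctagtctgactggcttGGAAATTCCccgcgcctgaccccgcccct
Ccl20: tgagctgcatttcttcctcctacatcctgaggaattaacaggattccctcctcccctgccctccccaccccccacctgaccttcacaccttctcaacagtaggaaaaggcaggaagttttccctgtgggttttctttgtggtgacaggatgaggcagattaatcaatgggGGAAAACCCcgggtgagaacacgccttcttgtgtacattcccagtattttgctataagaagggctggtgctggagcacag
Gpnmb: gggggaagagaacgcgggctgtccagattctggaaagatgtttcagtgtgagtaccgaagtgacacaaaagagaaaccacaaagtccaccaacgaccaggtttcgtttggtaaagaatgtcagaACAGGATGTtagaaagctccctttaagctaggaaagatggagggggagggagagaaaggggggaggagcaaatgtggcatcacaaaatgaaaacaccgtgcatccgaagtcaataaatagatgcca
The Nfkbia matches lay 178 to 170 and 29 to 21 bases before the start, the Ccl20 match 80 to 72 bases and the Gpnmb match 126 to 118 bases. For Gpnmb the distance holds for the RefSeq start only. GENCODE vM21 starts that gene further on, at 49036546, and the bases after the RefSeq start were not found in its annotated transcripts. A window was on hand for 10021 of the 13821 genes tested. GGAAANTCC was in 1.4% of all these genes, in 9 of the 182 with a window (4.95%) among genes called at least 2-fold higher with IL-1B and in 2 of the 204 (0.98%) among those at least 2-fold lower. GGAAANCCC was in 1.91% of all, in 10 of the 182 (5.49%) and in 1 of the 204 (0.49%). ACANNNTGT was in 4.36% of all, in 10 of the 182 (5.49%) and in 17 of the 204 (8.33%). Such matches describe letters in a short window and do not show that a factor binds there.

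**Figure D2:**
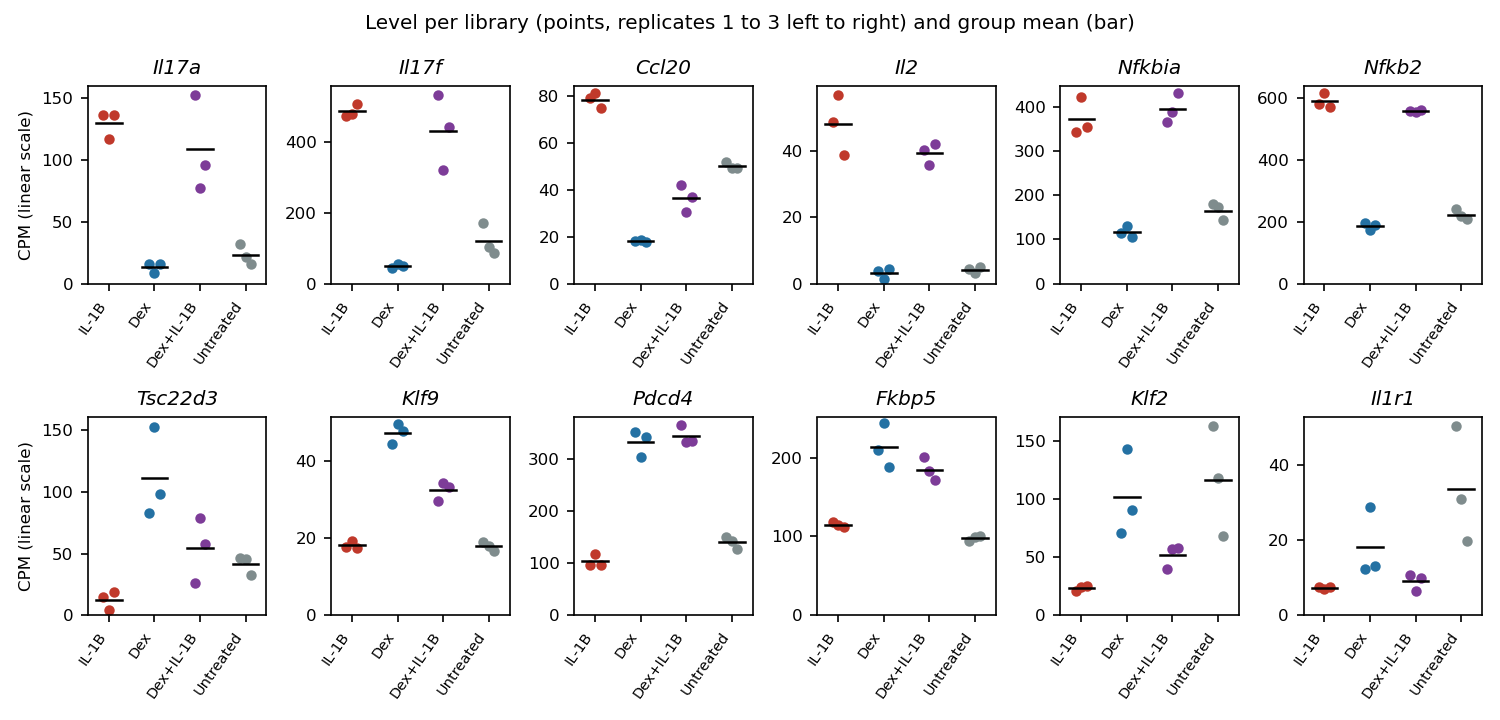
Points are CPM (linear axis from 0) of 12 genes in each library, replicates 1 to 3 from left to right, and bars are group means, with IL-1B left of Dex, then Dex+IL-1B and untreated. Il17a, Il17f, Ccl20, Il2, Nfkbia and Nfkb2 are above every Dex library in all 3 IL-1B libraries, and Tsc22d3, Klf9, Pdcd4, Fkbp5, Klf2 and Il1r1 are below.

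Genes that feed back on NF-kB were higher with IL-1B as well. Of 18 such genes, including TRAF and IAP members, all were tested, 12 rose, 1 fell and 5 were not called (median 0.42). Birc3, an inhibitor of apoptosis that ubiquitinates signalling proteins, had 224, 257 and 222 CPM with IL-1B and 120.5, 119 and 121 CPM with Dex (0.96 ± 0.08, adjusted p = 8.79e-06). Tnip1, a partner of the deubiquitinase A20, averaged 222 ± 4.96 CPM with IL-1B and 114 ± 14.3 CPM with Dex (0.96 ± 0.10, adjusted p = 6.82e-05). Tnfaip3, which encodes A20, had 121, 112 and 126 CPM with IL-1B and 61.6, 86.2 and 67.9 CPM with Dex (0.73 ± 0.13, adjusted p = 0.0021). Tnip2, another A20 partner, went the other way, with 56.4, 49.1 and 57.4 CPM with IL-1B and 114, 123 and 118 CPM with Dex (-1.13 ± 0.12, adjusted p = 6.98e-05). Untreated libraries held 78.9 ± 0.566 CPM of Tnip2; IL-1B against untreated was -0.54 ± 0.12 (adjusted p = 0.00761) and Dex against untreated 0.59 ± 0.12 (adjusted p = 0.0487).

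Of 10 listed factors that degrade inflammatory mRNA, all tested, 2 rose, 3 fell and 5 were not called. The rises were of ribonucleases of the Regnase family: Zc3h12a had 53.6, 48.7 and 60.4 CPM with IL-1B and 17.4, 19.7 and 21.8 CPM with Dex (1.47 ± 0.12, adjusted p = 5.21e-06), and Zc3h12d averaged 415 ± 13.6 and 284 ± 41.9 CPM (0.55 ± 0.13, adjusted p = 0.00806). The falls were of N4bp1 (-0.46 ± 0.10, adjusted p = 0.00624) and of the AU-rich element binding proteins Zfp36 and Zfp36l2, the last with 309.9, 296 and 297 CPM with IL-1B and 639, 568 and 702 CPM with Dex (-1.08 ± 0.13, adjusted p = 0.000138). Of the MAP kinase phosphatases, which switch off the kinases that IL-1 and T cell receptor signals use, 10 were tested, 1 rose and 3 fell. Dusp8 rose at few reads, 32, 49 and 15 with IL-1B and 1, 6 and 5 with Dex (3.31 ± 0.62, adjusted p = 0.00241). Dusp2 (-0.61 ± 0.10, adjusted p = 0.00113) and Dusp10 (-0.63 ± 0.16, adjusted p = 0.0137) fell, as did Dusp1, a classical glucocorticoid target, at 14.8, 13.7 and 17.5 CPM with IL-1B and 20.0, 19.7 and 23.3 CPM with Dex (-0.45 ± 0.14, adjusted p = 0.034). The Dusp1 call was lost when IL-1B 1 or 2 was left out, or when Dex 1, 2 or 3 was left out (adjusted p of 0.0965, 0.101, 0.0666, 0.0591 and 0.14; range across the alternatives 0.0176 to 1). Among 19 AP-1 and early response factors, all tested, 4 rose and 2 fell. Batf, an AP-1 factor required for Th17 differentiation, had 120.5, 148 and 121 CPM with IL-1B and 45.8, 50.5 and 48.7 CPM with Dex, clear of each other (1.43 ± 0.14, adjusted p = 2.39e-05). Jund rose by less (0.40 ± 0.08, adjusted p = 0.00388), and Fos (-1.25 ± 0.19, adjusted p = 0.00076) and Nr4a2 (-0.92 ± 0.20, adjusted p = 0.00498) fell.

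Genes known to be raised by glucocorticoids were among those that fell. Of 33 listed, 32 were tested, none rose, 16 fell and 16 were not called with IL-1B over Dex, with a median of -0.53. The 16 were Tsc22d3, Txnip, Pik3ip1, Pdcd4, Bcl2l11, Sgk1, Klf9, Mt1, Mt2, Il7r, Ddit4, Fkbp5, Zfp36, Per1, Btg1 and Dusp1, and the close copies Mt1 and Mt2 could share reads. Without IL-1B 1, Dex 2 or Dex 3 the list held 11 falls, and without IL-1B 2 it held 11 falls and 1 rise. With IL-1B 3 or Dex 1 left out it held 14 falls. Tsc22d3, which encodes the anti-inflammatory protein GILZ (ENSMUSG00000031431, chromosome X, 140539528 to 140600659), had 15, 4.48 and 18.6 CPM with IL-1B and 82.9, 153 and 98.1 CPM with Dex, the largest fall by the rule (-3.13 ± 0.52, adjusted p = 0.00263). Replicates within each group spread widely, and the rule had required that the groups not overlap. The untreated mean of Tsc22d3, 41.8 ± 7.61 CPM, lay between them. IL-1B against untreated was -1.72 ± 0.51 (adjusted p = 0.0367), and Dex against untreated was not called, at 1.41 ± 0.48 (adjusted p = 0.328). Klf9, a transcription factor that the glucocorticoid receptor induces directly, had 17.7, 19.3 and 17.4 CPM with IL-1B and 44.3, 49.6 and 47.6 CPM with Dex (-1.38 ± 0.10, adjusted p = 1.59e-06). Klf9 libraries were tight in both groups, and untreated ones held 18.8, 17.9 and 16.7 CPM, close to the IL-1B level. Pdcd4, which restrains translation, had 96, 118 and 96.3 CPM with IL-1B and 352, 304 and 343 CPM with Dex (-1.69 ± 0.10, adjusted p = 7.95e-07). With both agents Pdcd4 stood at 366, 332 and 334 CPM, at the Dex level.

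Fkbp5, a co-chaperone that dampens the receptor, had 118, 114 and 112 CPM with IL-1B and 209, 243 and 188 CPM with Dex (-0.90 ± 0.10, adjusted p = 6.76e-05). Most of the gap lay between Dex and untreated: Dex against untreated gave 1.12 ± 0.10 (adjusted p = 4.83e-05) and IL-1B against untreated 0.23 ± 0.10 (adjusted p = 0.113). Other genes of the list were placed differently against untreated cells. Txnip, which binds thioredoxin and limits glucose uptake (ENSMUSG00000038393, chromosome 3, 96557957 to 96561883), had 36, 17.4 and 44.4 CPM with IL-1B and 122, 216 and 139 CPM with Dex (-2.29 ± 0.32, adjusted p = 0.00084). The untreated mean of Txnip, 72.4 ± 18.4 CPM, lay between them, and IL-1B against untreated was -1.15 ± 0.32 (adjusted p = 0.0245) while Dex against untreated was 1.13 ± 0.31 (adjusted p = 0.179). Pik3ip1, an inhibitor of PI3 kinase, had 14.1, 9.45 and 14.9 CPM with IL-1B and 40.7, 79.5 and 46.2 CPM with Dex (-2.11 ± 0.31, adjusted p = 0.000926). Without Dex 2, the highest library for Tsc22d3, Txnip and Pik3ip1, their log2 differences were -2.83, -2.01 and -1.76, and each was still called. Per1, a clock gene with a glucocorticoid response element, had 65.3, 59 and 90.1 CPM with IL-1B and 99.4, 118 and 117 CPM with Dex (-0.64 ± 0.15, adjusted p = 0.0074).

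The remaining large falls came from varied families. Gpnmb, a membrane glycoprotein gene, had 2.87, 4.2 and 3.16 CPM with IL-1B and 15.7, 16.5 and 17.6 CPM with Dex, with untreated at 8.35, 8.94 and 7.23 CPM. The untreated libraries lay between the groups without touching either (-2.28 ± 0.19, adjusted p = 6.17e-06), and Dex against untreated was 1.02 ± 0.17 (adjusted p = 0.0172) and IL-1B against untreated -1.27 ± 0.19 (adjusted p = 0.000838). Plaur, the urokinase receptor, had 2.72, 1.71 and 1.99 CPM with IL-1B and 13.6, 6.77 and 14.8 CPM with Dex (-2.45 ± 0.36, adjusted p = 0.000711), and Ramp3, which modifies calcitonin-family receptors, 2.82, 1.33 and 2.05 and 12.8, 5.13 and 12.8 CPM (-2.30 ± 0.51, adjusted p = 0.00774). Dex 2 was the lowest Dex library for both, and untreated libraries were near the IL-1B level (1.68 ± 0.701 and 1.49 ± 0.872 CPM). Dysf, which encodes the membrane repair protein dysferlin, averaged 2.43 ± 0.639 CPM with IL-1B and 11.9 ± 1.71 CPM with Dex (-2.28 ± 0.28, adjusted p = 0.000146). Prnp, the prion protein gene, averaged 28.7 ± 7.23 CPM with IL-1B and 114 ± 13.9 CPM with Dex (-1.99 ± 0.28, adjusted p = 0.000696). Ica1l (-2.79 ± 0.49, adjusted p = 0.00168) and the unconventional myosin Myo6 (-1.98 ± 0.34, adjusted p = 0.00231) were also among the 12, and for Myo6 the untreated mean, 60.5 ± 23.8 CPM, was close to the Dex mean, 62.5 ± 26.6 CPM.

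**Figure D3:**
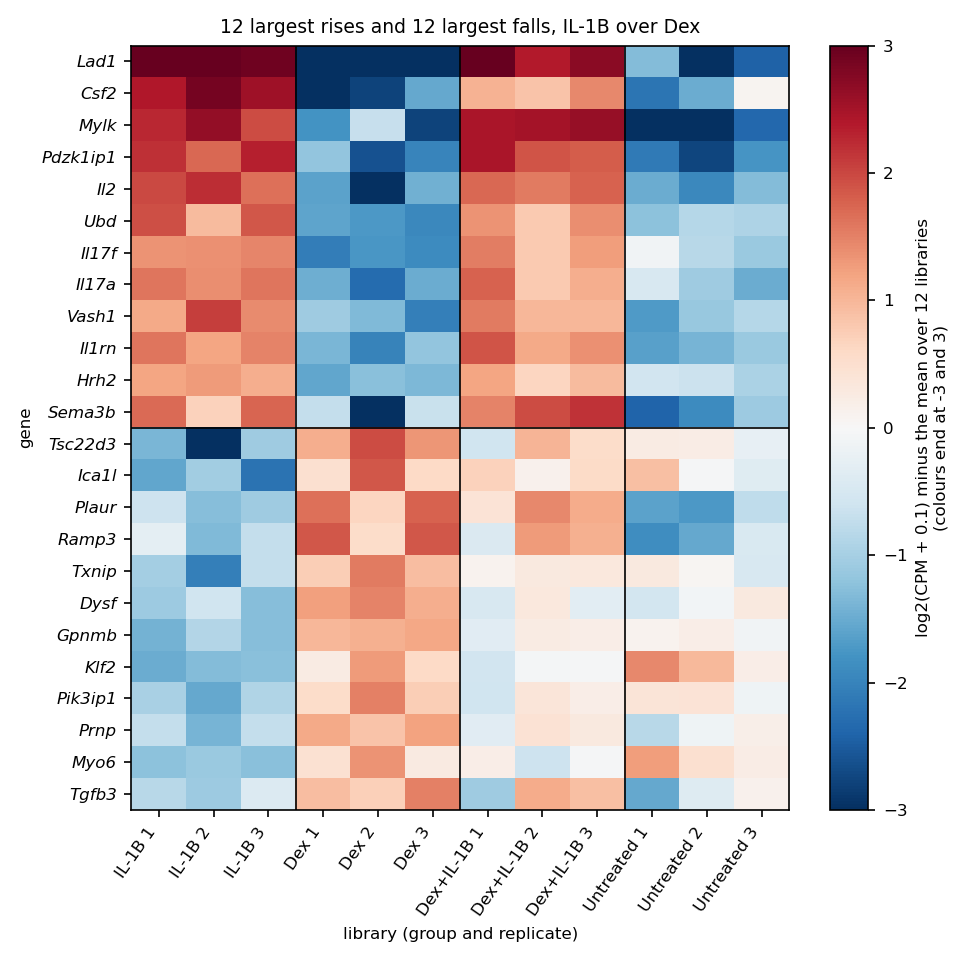
Rows are the 12 largest rises (top) and 12 largest falls (bottom) of IL-1B over Dex, columns the 12 libraries with IL-1B first, and colour is log2(CPM + 0.1) minus the gene's mean over all libraries, cut at -3 and 3. The Dex+IL-1B columns resemble the IL-1B columns for most rises, such as Lad1 at 12.9 ± 4.22 CPM, and lie between the groups for falls such as Gpnmb at 8.16 ± 1.72 CPM.

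The machinery of the glucocorticoid receptor differed in its chaperones. Of 17 genes for the receptor, its cofactors and steroid handling, 16 were tested and 31.2% of these were called, against 21.9% of all genes. Among them 4 rose and 1 fell, against 2 falls without IL-1B 2. The 4 were members of the HSP90 cycle that folds the receptor: Stip1, with 518, 636 and 521 CPM with IL-1B and 308, 284 and 281 CPM with Dex (0.94 ± 0.13, adjusted p = 0.000296), and Ptges3 (0.93 ± 0.19, adjusted p = 0.00399), Hsp90aa1 (0.84 ± 0.15, adjusted p = 0.00201) and Fkbp4 (0.65 ± 0.11, adjusted p = 0.00104). IL-1B 2, the library high in ribosomal RNA genes, was the highest IL-1B library for Stip1, Ptges3 and Hsp90aa1; without it their differences were 0.84, 0.62 and 0.59, each still called. The receptor gene Nr3c1 was lower with IL-1B, at 40.1, 52.7 and 38.7 CPM, against 61.3, 59.6 and 62.5 CPM with Dex (-0.48 ± 0.12, adjusted p = 0.0106). Among 17 circadian clock genes 16 were tested, 1 rose and 2 fell, the falls being Per1 and Npas2 (-0.63 ± 0.13, adjusted p = 0.00401). Called clock genes made up 18.8% of those tested, against 21.9% of all genes. The rise was Nr1d1, a repressor of the clock (0.89 ± 0.26, adjusted p = 0.0288), and its call was lost when IL-1B 2 or 3 was left out, or when Dex 2 or 3 was left out, or with no low-count filter or a fit to only the 6 libraries, or without both libraries with much ribosomal RNA (adjusted p of 0.102, 0.0575, 0.0678, 0.116, 0.0648, 0.0746 and 0.0855; range across the alternatives 0.0121 to 0.641). Of 11 KLF factors 10 were tested, 1 rose (Klf16, 0.50 ± 0.13, adjusted p = 0.0127) and 2 fell, Klf9 and Klf2. This is 30% of the 10, against 21.9% of all genes. The Klf16 call was lost when Dex 2 was left out (adjusted p of 0.0513; range across the alternatives 0.000662 to 1).

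Most regulators that set the Th17 program were not called, as was so for most genes tested. Of 17 lineage regulators, all tested, none rose and 2 fell, with 1 rise when IL-1B 3 was left out (median -0.11). Called regulators made up 11.8% of the 17, against 21.9% of all genes. Irf4, at 1193 ± 97.5 CPM with IL-1B and 1037 ± 81.4 CPM with Dex, was not called (0.20 ± 0.09, adjusted p = 0.123), nor was Stat3 (-0.22 ± 0.11, adjusted p = 0.147) or the IL-23 receptor gene Il23r (-0.18 ± 0.18, adjusted p = 0.513). Il23r was called lower when IL-1B 2 was left out, or without both libraries with much ribosomal RNA (adjusted p of 0.036 and 0.0277; range across the alternatives 0.0277 to 1), and then IL-1B 1 and 3 stood at 22.1 and 20.2 CPM. The 2 falls were of receptors for the polarising cytokines in the medium: Il6ra, with 97.9, 96.3 and 96.2 CPM with IL-1B and 145, 161 and 139 CPM with Dex (-0.62 ± 0.10, adjusted p = 0.000767), and Tgfbr2, with 65.9 ± 4.46 and 95.4 ± 12.4 CPM (-0.53 ± 0.12, adjusted p = 0.00831). Foxp3, the regulatory T cell factor, was low in all 6 libraries, at 1.41, 1.22 and 1.58 CPM with IL-1B and 1.54, 1.74 and 1.45 CPM with Dex (-0.17 ± 0.28, adjusted p = 0.707).

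Of 24 cytokine receptor chains 23 were tested, 2 rose and 6 fell with IL-1B, against 1 rise and 6 falls without IL-1B 1, IL-1B 3, Dex 2 or Dex 3. Il2ra, the high-affinity IL-2 receptor chain, had 2159, 2048 and 2153 CPM with IL-1B and 1531, 1035 and 1538 CPM with Dex (0.63 ± 0.14, adjusted p = 0.00654). Il7r, needed for T cell survival and raised by glucocorticoids, had 98, 94.3 and 91.3 CPM with IL-1B and 156, 287 and 156 CPM with Dex (-1.08 ± 0.23, adjusted p = 0.00697). Dex 2 was the highest Il7r library, and without it the difference was -0.72, still called. Untreated libraries averaged 171 ± 23.8 CPM of Il7r. Dex against untreated was not called, at 0.22 ± 0.23 (adjusted p = 0.84), and IL-1B against untreated was -0.86 ± 0.23 (adjusted p = 0.0214). Ifngr1 averaged 43.6 ± 9.95 CPM with IL-1B and 98.2 ± 12.8 CPM with Dex (-1.17 ± 0.18, adjusted p = 0.000954), and Il10ra 32.2 ± 5.22 and 60.0 ± 2.79 CPM (-0.90 ± 0.16, adjusted p = 0.00202). Among 13 coinhibitory receptors and ectoenzymes 11 were tested, 2 rose and 4 fell. Cd200, a ligand that quiets myeloid cells, had 338, 276 and 285 CPM with IL-1B and 164, 122 and 149 CPM with Dex (1.05 ± 0.11, adjusted p = 5.57e-05). Nt5e, which encodes CD73 and makes adenosine, had 48.3, 34.8 and 45.1 CPM with IL-1B and 108, 128 and 117 CPM with Dex (-1.46 ± 0.18, adjusted p = 0.000247), with untreated at 104 ± 18.3 CPM. Ctla4 (-0.93 ± 0.30, adjusted p = 0.0441), Pdcd1 (-0.66 ± 0.17, adjusted p = 0.0164) and Entpd1 (-1.24 ± 0.35, adjusted p = 0.0238) fell less firmly: the first was not called when IL-1B 1, 2 or 3 was left out, or when Dex 1, 2 or 3 was left out, or with limma-voom or no low-count filter (adjusted p of 0.0819, 0.173, 0.0574, 0.0865, 0.0693, 0.149, 0.0503 and 0.149; range across the alternatives 0.00393 to 0.647), the second when Dex 2 was left out (adjusted p of 0.0742; range across the alternatives 0.00292 to 1) and the third when IL-1B 1 or 3 was left out, or when Dex 2 was left out, or with limma-voom or a fit to only the 6 libraries (adjusted p of 0.0769, 0.0657, 0.128, 0.0538 and 0.0539; range across the alternatives 0.00494 to 0.334). The list held 2 rises and 1 fall without Dex 2, 1 rise and 2 falls without IL-1B 1, and 1 rise and 3 falls without IL-1B 2 or Dex 3.

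Of 14 naive-state and homing genes, which mark resting and recirculating T cells, all were tested, 2 rose, 5 fell and 7 were not called. Klf2, which drives exit from lymph nodes (ENSMUSG00000055148, chromosome 8, 72319033 to 72321656), had 21.1, 23.9 and 24.7 CPM with IL-1B and 70.5, 143 and 90.1 CPM with Dex (-2.12 ± 0.32, adjusted p = 0.00125). All 3 IL-1B libraries were alike, Dex 2 was the highest Dex library, and without it the difference was -1.79, still called. Against untreated, which stood at 116 ± 47.4 CPM, Dex gave -0.20 ± 0.30 (adjusted p = 0.91) and IL-1B -2.32 ± 0.33 (adjusted p = 0.00106). S1pr1, the exit receptor that Klf2 induces, averaged 29 ± 2.12 CPM with IL-1B and 72.6 ± 28 CPM with Dex (-1.32 ± 0.28, adjusted p = 0.00697); the call was lost without both libraries with much ribosomal RNA (adjusted p of 0.0551; range across the alternatives 8.69e-06 to 0.147). Itga6 (-0.58 ± 0.09, adjusted p = 0.000838) and Ccr7, a lymph node homing receptor (-0.52 ± 0.13, adjusted p = 0.0115), fell too, Ccr7 not being called when IL-1B 1 was left out (adjusted p of 0.0524; range across the alternatives 0.00114 to 1). Satb1, a chromatin organiser, had 1078, 1222 and 1088 CPM with IL-1B and 724, 789.9 and 759.8 CPM with Dex (0.58 ± 0.09, adjusted p = 0.000731), and Id3 rose as well (0.81 ± 0.16, adjusted p = 0.00299).

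Of 22 SOCS, JAK and STAT genes, all tested, 6 rose and 4 fell. Stat5a, which carries the IL-2 signal (ENSMUSG00000004043, chromosome 11, 100859351 to 100885169), had 452, 475 and 463 CPM with IL-1B and 135, 133 and 137 CPM with Dex, tight and far apart (1.78 ± 0.09, adjusted p = 9.4e-08). Its neighbour and near copy Stat5b had 552, 593 and 559.5 CPM with IL-1B and 375, 399.8 and 397 CPM with Dex (0.54 ± 0.08, adjusted p = 0.00073), and reads of the pair could be split by the counting. The kinases Jak2 (0.64 ± 0.10, adjusted p = 0.000654) and Pim2, a survival kinase, with 470.2, 395 and 493 CPM with IL-1B and 222, 211 and 206 CPM with Dex (1.09 ± 0.10, adjusted p = 1.33e-05), rose too. The falls included those of Stat2, Socs2 and Socs3, and without Dex 1 the list held 2 falls. In the BCL2 family and its partners, 19 of 20 were tested, 5 rose and 5 fell. Bcl2l1, which encodes the survival protein BCL-XL, had 167, 214 and 170.1 CPM with IL-1B and 66.9, 34.8 and 55.5 CPM with Dex (1.81 ± 0.20, adjusted p = 0.000125). Bcl2l11, which encodes the death-promoting protein BIM and is raised by glucocorticoids in lymphocytes, had 33.9, 42.6 and 43.1 CPM with IL-1B and 84.3, 149 and 97.2 CPM with Dex (-1.47 ± 0.23, adjusted p = 0.00104). The pair thus moved in opposite directions in all 3 libraries of each group. Raw reads of Bcl2l11 were 3110, 2649 and 1466 in untreated libraries, 1977, 3334 and 2410 with Dex and 674, 770 and 736 with IL-1B. Bad, another death-promoting member, fell (-0.73 ± 0.12, adjusted p = 0.000968).

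Most listed growth genes rose. Of 20 MYC and ribosome biogenesis genes, all tested, 18 rose, none fell and 2 were not called, with a median of 0.94. Nop56, part of the complex that modifies ribosomal RNA, had 410.3, 535 and 408 CPM with IL-1B and 214, 180.1 and 213 CPM with Dex (1.16 ± 0.14, adjusted p = 0.000117). Rrp9, which works on the same precursor, had 95.9, 115 and 95.5 CPM with IL-1B and 49.7, 35.6 and 46.5 CPM with Dex (1.22 ± 0.15, adjusted p = 0.000192). The groups did not overlap for either, although IL-1B 2 was the highest and Dex 2 the lowest library for both. Nop58 (0.99 ± 0.15, adjusted p = 0.00057) and the nucleolar GTPase gene Gnl3 (0.89 ± 0.13, adjusted p = 0.000592) rose too. The list held 18 rises without IL-1B 2 and 16 without Dex 2. Few glycolysis and hypoxia genes were called: of 20, all tested, 1 rose, 1 fell and 18 were not called, with 2 rises when IL-1B 1 was left out. Hk2, a hexokinase gene, had 419, 853 and 505 CPM with IL-1B, highest in IL-1B 2, and 248, 195 and 281 CPM with Dex (1.29 ± 0.26, adjusted p = 0.00484). Pdk1, which keeps pyruvate from the mitochondria, fell (-0.51 ± 0.12, adjusted p = 0.00807), and Ldha was at 3246 ± 357 CPM with IL-1B and 2748 ± 94.1 CPM with Dex (0.24 ± 0.09, adjusted p = 0.0671).

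**Figure D4:**
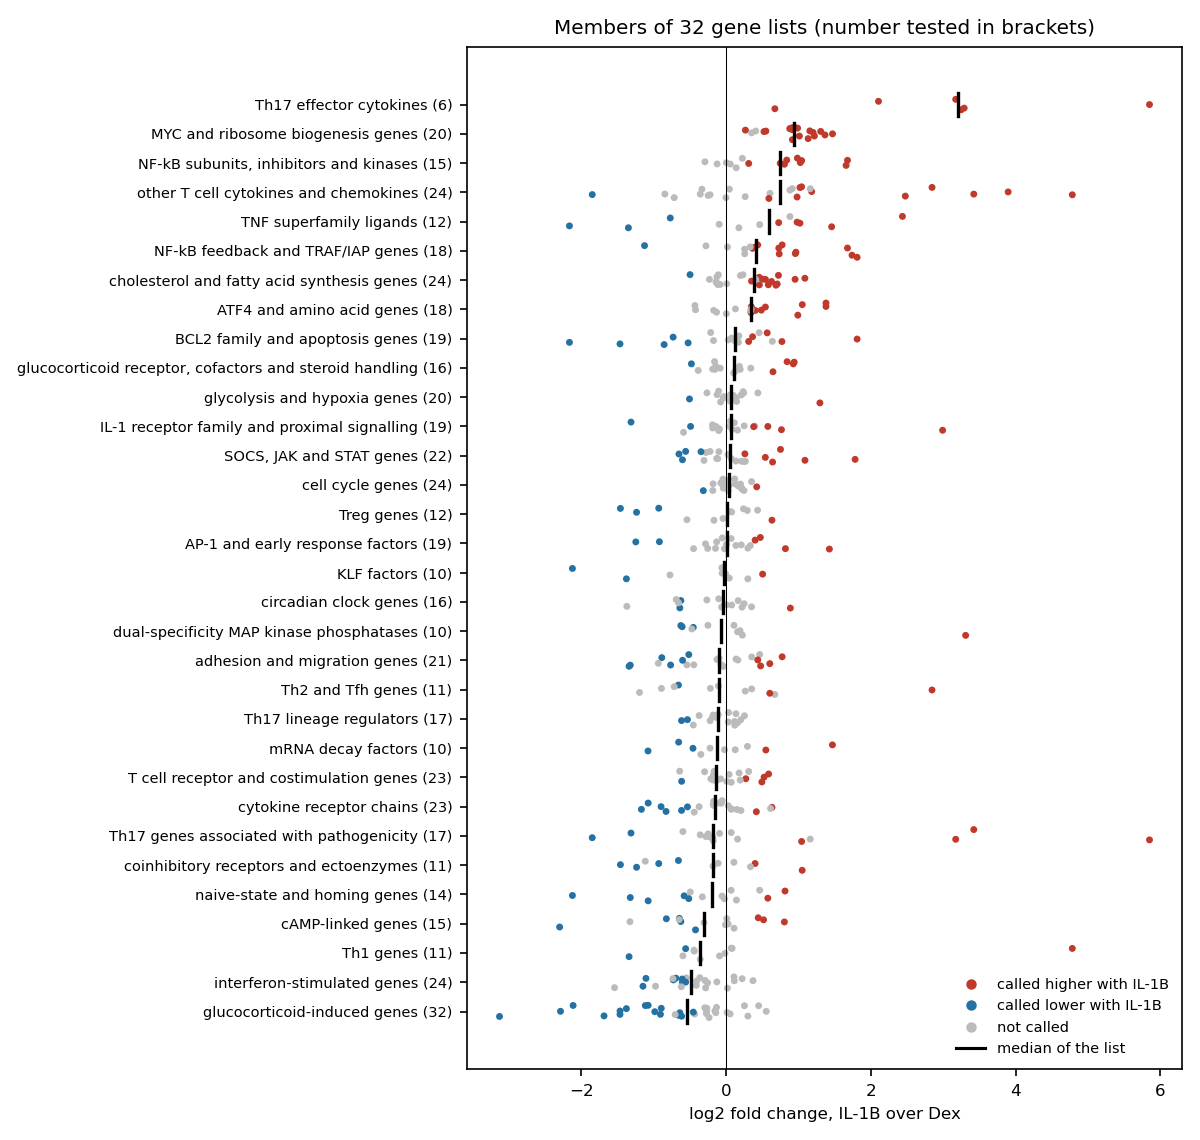
Each row is 1 of 32 gene lists, ordered by median, with the number of tested members in brackets; points are members' log2 fold changes of IL-1B over Dex, red if called higher, blue if called lower and grey if not called, and black bars are list medians. Th17 effector cytokines (median 3.21) and MYC and ribosome biogenesis genes (0.94) lie at the top and glucocorticoid-induced genes (-0.53) at the bottom.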

How the data were processed

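Messenger RNA from 12 libraries of mouse Th17 cells, 3 in each of 4 treatment groups, was measured by poly(A)-selected RNA-seq, and 6 of them form the contrast of IL-1B against Dex. The table the authors deposited holds raw counts, unnormalized whole numbers of reads, for 35275 gene identifiers; GENCODE vM21 gave a symbol for 34490. It has 12 columns, 0 of them unused, and 0 lines without a gene. GRCm38 and mm10 are the genome builds named in the submitters' processing notes, which also list HTSeq 0.6.1, STAR 2.7.0a and DESeq2 but no role for any of them. No source used here gives a strand setting, so reads of a gene and an antisense or overlapping gene cannot be told apart, and near-identical copies could share reads. Total counts were 16904106 to 30445734 per library. PCR copies are not independent molecules, so this depth limits counting error only.

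Counts were tested in R 4.3.3 with edgeR 4.0.16: TMM scaling, edgeR's filter on group (13821 genes kept; the others held 0.0562% of counts), and a robust quasi-likelihood fit of a one-way model over all 12 libraries, with 8 residual degrees of freedom, which share 1 estimate of spread. Adjusted p-values are Benjamini-Hochberg over all genes tested in the contrast, and genes were called under 0.05. Gene lists (38, of which 32 are pathways) are described by counts and medians without a set test. Members, lists and tests were chosen with earlier results of these data known. Named genes were the 12 largest rises and falls among called genes with at least 5 CPM in the higher group, at least 4 reads in the lower and no overlap of replicates, without clone or model names, pseudogenes and receptor segments, plus a panel of 24 and, from each list, at most 4 genes of lowest adjusted p, 142 in all, of which some are not reported here. The method was tested on simulated data. Replicate numbers were not taken as pairs, since the labels do not say that a number marks a shared culture or animal. Same-numbered IL-1B and Dex libraries deviated together by a correlation of 0.0324 to 0.049, and those of other numbers by -0.0628 to 0.0351. The correlation of replicates of a group over genes was 0.978 to 0.992. No 2 replicates of a group agreed within sampling noise (chi-square per degree of freedom 4.34 to 50.5). The value was 4.34 for IL-1B 1 and 3, but 49.9 and 50 for the pairs that hold IL-1B 2. Among Dex pairs it was 6.88 for Dex 1 and 3, and 18.6 and 22.1 for those with Dex 2. Alternatives were DESeq2 1.42.0, limma-voom (limma 3.58.1), median-ratio scaling, other filters, a fit to the 6 libraries, a test against 1.5-fold and a replicate block. Each of the 6 IL-1B and Dex libraries was also left out, as were the libraries or genes high in ribosomal RNA.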

Additional observations from a re-analysis of the deposited data

How the results depend on the processing

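No named gene changed direction under any of 16 alternatives. Of the 129 named genes that were called, 109 stayed called under all 15 alternatives other than the test against a 1.5-fold change, which kept 50. That test called 161 genes over all (100 higher, 61 lower, 154 at least 2-fold), against 3022 (1692, 1330 and 511). With each of the 6 IL-1B and Dex libraries left out in turn, the count was 1839 to 2752. Of these, 1059 to 1590 were higher, 780 to 1162 lower, and 345 to 575 at least 2-fold. The first 3 counts were lowest without Dex 2, and without Dex 3 the lower count was 864. The cause was not tested; fewer samples enter those fits. DESeq2 called 3513 and limma-voom 2940. With the replicate number as a block 2874 genes were called, 2754 of them shared with the 3022, and of the named genes Il13 and Ccnb2 lost their calls, although the block is not given by the design. IL-1B 1, 2 and 3 each correlated best with the Dex library of their own number, but Dex 3 correlated best with IL-1B 1. Genes called higher made up 54.8% to 62.1% of calls over the alternatives. Depth limits the genes with few reads with Dex, such as Csf2, Ifng, Il22 and Il13.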

Other observations

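Of 25 listed interferon-stimulated genes, 24 were tested, none rose, 7 fell and 17 were not called, with a median log2 difference of -0.48, against -0.02 over all 13821 genes. Gbp7, an interferon-induced GTPase from a family of close copies that could share reads, had 22.2, 21.9 and 25.2 CPM with IL-1B and 45.6, 55.7 and 52.4 CPM with Dex (-1.15 ± 0.11, adjusted p = 1.45e-05). Irf9, which partners STAT2 in the interferon response, had 40.1, 38.6 and 41.9 CPM with IL-1B and 66.9, 68.7 and 59.6 CPM with Dex (-0.70 ± 0.09, adjusted p = 0.000165), and Stat2 (-0.60 ± 0.11, adjusted p = 0.00159) and Xaf1 (-1.11 ± 0.22, adjusted p = 0.00357) fell as well. Untreated libraries averaged 60.2 ± 2.64 CPM of Irf9 and 41.1 ± 1.48 CPM of Gbp7. Among 14 TNF superfamily ligands 12 were tested, 5 rose and 3 fell. Tnfsf11, which encodes RANKL, averaged 35.9 ± 4.15 CPM with IL-1B and 13.1 ± 3.72 CPM with Dex (1.46 ± 0.17, adjusted p = 0.000143), and Cd40lg rose by less (0.73 ± 0.12, adjusted p = 0.00117), while Tnfsf10, which encodes the death ligand TRAIL, averaged 2.24 ± 0.543 CPM with IL-1B and 5.75 ± 0.568 CPM with Dex (-1.35 ± 0.25, adjusted p = 0.00211). Of 16 genes of cyclic AMP signalling 15 were tested, 3 rose and 5 fell, against 1 rise and 5 falls without Dex 1 or Dex 3: the prostaglandin E2 receptor Ptger4 averaged 117 ± 12.8 CPM with IL-1B and 66.9 ± 11.9 CPM with Dex (0.80 ± 0.12, adjusted p = 0.000656), and the phosphodiesterase Pde4b averaged 30.1 ± 2.39 CPM with IL-1B and 53.3 ± 3.56 CPM with Dex (-0.83 ± 0.11, adjusted p = 0.000219).

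Of 24 cholesterol and fatty acid synthesis genes, all tested, 12 rose, 1 fell and 11 were not called (median 0.38). Hmgcs1, an early enzyme of cholesterol synthesis, had 309.6, 285 and 295 CPM with IL-1B and 179, 161 and 199 CPM with Dex (0.72 ± 0.10, adjusted p = 0.000269), and Sqle, a later enzyme (0.54 ± 0.10, adjusted p = 0.00188), rose too. Of 18 ATF4 and amino acid genes, all tested, 10 rose, none fell and 8 were not called, against 4 rises without Dex 2, 5 without IL-1B 1 and 5 without IL-1B 3. The amino acid transporter Slc7a5 had 373, 409 and 386 CPM with IL-1B and 222, 156 and 209.9 CPM with Dex (0.99 ± 0.15, adjusted p = 0.000729). Of 24 cell cycle genes, all tested, 1 rose and 1 fell, against 4 rises and no fall without IL-1B 2 and 5 rises without both libraries with much ribosomal RNA. Mcm2 rose (0.42 ± 0.09, adjusted p = 0.00538) and Ccnb2 fell (-0.32 ± 0.10, adjusted p = 0.0405), and the Ccnb2 call was lost when IL-1B 1 or 2 was left out, or when Dex 2 or 3 was left out, or with a fit to only the 6 libraries or the replicate block, or without both libraries with much ribosomal RNA (adjusted p of 0.0686, 0.115, 0.194, 0.0608, 0.0964, 0.0622 and 0.0958; range across the alternatives 0.0253 to 1). Of 23 T cell receptor and costimulation genes, all tested, 4 rose and 1 fell, against 4 rises and 3 falls without IL-1B 2, 3 rises and 2 falls without Dex 1 and 2 rises and 1 fall without Dex 3. The called share of this list, 21.7%, was near that of all genes, 21.9%. The inhibitory receptor Cd5 averaged 598 ± 56 CPM with IL-1B and 399 ± 28.2 CPM with Dex (0.59 ± 0.11, adjusted p = 0.00239), and the phospholipase Plcg1 had 150.1, 156 and 162 CPM with IL-1B and 238, 249 and 231 CPM with Dex (-0.62 ± 0.08, adjusted p = 0.000166).

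Below the level set for named genes, 2 further genes, chosen after their values were seen, lay far apart. Fam107a had 37, 34 and 25 reads with IL-1B and no read in any Dex or untreated library, which makes it at least 41.1-fold higher with IL-1B against a floor of 3 reads over the Dex group (adjusted p = 0.000551). Kit, the stem cell factor receptor and a marker of innate lymphoid cells, had 70, 104 and 38 reads with IL-1B and 3, 9 and 9 with Dex (3.66 ± 0.53, adjusted p = 0.000502). Of the 7 tested genes of the gamma-delta T and innate lymphoid list, Kit was the only rise. In that list 1 gene fell, Il7r, 5 were not called and the median was -0.11. Its summed level, given above and mostly Il7r, was lower with IL-1B.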
